A study of Homo sapiens with 2 samples.

Results

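The ATP-binding cassette (ABC) genes were followed through a map of DNA bound with a TCF4 antibody in CAL-27, an established human line from a tongue squamous cell carcinoma, cultured as spheres. Sphere culture is a common way to favour stem-like tumour cells. There was 1 library with the TCF4 antibody and 1 with IgG as the control antibody, both from CAL-27 spheres. Only the TCF4 library, as a list of 26642 peaks on hg38, was analysed here. Every protein-coding RefSeq gene whose symbol is ABCA to ABCG followed by a digit was taken, which gave 46 of 20037 genes. One of them, ABCF2-H2BK1, is a readthrough record with the same upper end and start as ABCF2, so the 46 records stand for 45 loci. No value has a replicate check, nothing was tested between the antibodies, and no test was run on the members. TCF4 binding cannot be told apart here from signal that any antibody would give. The name TCF4 is in use for an E protein, which binds E-boxes, and for TCF7L2, the Wnt effector, and the labels do not settle which was targeted.

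ABC proteins use ATP to move substrates across membranes. Full transporters carry both membrane domains and both ATPase domains in a single chain, while shorter members must pair up to work, and the ABCE and ABCF proteins have ATPase domains only and work on the ribosome. Efflux pumps such as ABCB1 (P-glycoprotein), ABCC1 and ABCG2 remove many anticancer drugs from cells, and ABCG2 activity marks the side population used to isolate stem-like cells. The family also exports cholesterol and phospholipids, feeds peroxisomes with fatty acyl-CoA and takes part in mitochondrial iron and haem metabolism.

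A summit, the highest point of a peak, lay within 1 kb of an end of 16 of the 46 ABC genes (34.8%, Wilson 95% interval 22.7 to 49.2%). Among all protein-coding genes the share was 41.2%, so the family's count lay near the background. The genes with such a peak included ABCA3, ABCA5, ABCA7, ABCB6, ABCB8, ABCB9, ABCB10, ABCC5, ABCC8, ABCC10, ABCD4, ABCF1, ABCF2, ABCF2-H2BK1 and ABCF3. A further 13 had a summit inside the gene and none at an end: ABCA1, ABCA2, ABCA4, ABCA13, ABCB1, ABCB5, ABCC1, ABCC2, ABCC3, ABCC4, ABCC12, ABCD3 and ABCG1. Of these, ABCA2, ABCC3 and ABCG1 also had summits outside the gene within 20 kb. ABCG4 had only 1 summit outside the gene, 6329 bp beyond its upper end and 661 bp from an end of NLRX1. The other 16 had no summit within 20 kb, among them ABCA6, ABCA8, ABCA9, ABCA10, ABCA12, ABCB4, ABCB11, ABCC6, ABCC9, ABCC11, ABCD2, ABCE1, ABCG2, ABCG5 and ABCG8.

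Sequences before the start of 7 members are shown as examples with and without a summit at the start. RefSeq promoter entries (GRCh38.p14, 250 bases before a gene's start to 50 after it) were matched for 36 of the 46 genes, with 54 starts. ABCA4, ABCA8, ABCB4, ABCB5, ABCC1, ABCC3, ABCC8 and ABCG1 were among those not matched. ABCF1 (chr6:30571192-30571441, plus strand), ABCB8 (chr7:151028200-151028449, plus), an inner start of ABCB9 (chr12:122966464-122966713, minus) and ABCD3 (chr1:94418139-94418388, plus) each had a summit within the stretch printed. The most GC-rich start of ABCG2 (chr4:88158860-88159109, minus), the start of ABCE1 (chr4:145098061-145098310, plus) and the inner start of ABCB1 (chr7:87600885-87601134, minus) had none within 1 kb. Each is the 250 bases before the start, from 5′ to 3′ in the direction of the gene, and capitals mark matches to the E-box CANNTG. The core of TCF/LEF sites, CTTTGA on either strand, was searched as well and had no match in these 7 stretches.
ABCF1: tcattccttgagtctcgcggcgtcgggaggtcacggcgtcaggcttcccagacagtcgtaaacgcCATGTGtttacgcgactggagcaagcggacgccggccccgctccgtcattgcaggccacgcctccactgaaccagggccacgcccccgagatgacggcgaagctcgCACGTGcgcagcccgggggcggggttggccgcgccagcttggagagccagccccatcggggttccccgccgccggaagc
ABCB8: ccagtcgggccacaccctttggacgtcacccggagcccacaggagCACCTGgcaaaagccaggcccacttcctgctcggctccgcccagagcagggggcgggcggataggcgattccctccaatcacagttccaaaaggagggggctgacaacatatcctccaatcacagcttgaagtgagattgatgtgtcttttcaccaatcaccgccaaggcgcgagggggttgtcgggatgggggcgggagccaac
ABCB9: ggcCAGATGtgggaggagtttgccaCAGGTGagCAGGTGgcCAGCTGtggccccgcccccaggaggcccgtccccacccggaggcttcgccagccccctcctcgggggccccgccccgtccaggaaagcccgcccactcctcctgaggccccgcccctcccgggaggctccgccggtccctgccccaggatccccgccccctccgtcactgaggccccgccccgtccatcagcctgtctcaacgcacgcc
ABCD3: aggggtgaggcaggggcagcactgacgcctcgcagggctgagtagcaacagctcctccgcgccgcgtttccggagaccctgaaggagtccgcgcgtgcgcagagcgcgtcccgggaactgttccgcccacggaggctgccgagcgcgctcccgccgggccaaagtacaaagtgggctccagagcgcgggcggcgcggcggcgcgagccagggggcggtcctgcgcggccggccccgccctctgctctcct
ABCG2: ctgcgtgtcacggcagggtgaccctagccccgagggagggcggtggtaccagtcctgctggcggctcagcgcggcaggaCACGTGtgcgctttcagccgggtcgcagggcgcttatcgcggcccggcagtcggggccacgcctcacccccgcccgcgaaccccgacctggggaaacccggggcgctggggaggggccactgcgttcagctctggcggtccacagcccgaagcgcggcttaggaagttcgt
ABCE1: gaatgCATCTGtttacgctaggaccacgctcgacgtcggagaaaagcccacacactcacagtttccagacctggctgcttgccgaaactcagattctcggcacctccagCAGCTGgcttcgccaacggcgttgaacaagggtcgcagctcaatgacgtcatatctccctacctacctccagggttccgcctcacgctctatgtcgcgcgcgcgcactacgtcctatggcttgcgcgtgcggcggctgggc
ABCB1: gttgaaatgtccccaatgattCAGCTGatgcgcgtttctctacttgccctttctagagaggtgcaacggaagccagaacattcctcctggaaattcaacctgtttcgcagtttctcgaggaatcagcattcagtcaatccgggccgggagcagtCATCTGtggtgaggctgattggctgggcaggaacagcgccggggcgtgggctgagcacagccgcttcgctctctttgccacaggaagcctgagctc

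In these stretches E-boxes stood both with and without a peak. The ABCF1 summit lay 120 bases before the start, between CATGTG at -185 and CACGTG at -79, counted from the first base of the match to the start. The ABCB8 summit at -235 lay just before the single match of its stretch, CACCTG at -205. ABCB9 held 4 matches from -247 to -209, all far from its summit at -44. ABCD3 held none, with a summit at -168. ABCG2 held CACGTG at -171, ABCE1 held CATCTG at -245 and CAGCTG at -141, and ABCB1 held CAGCTG at -229 and CATCTG at -96, none of them beside a summit. A match describes letters in the window and does not mark a bound site.

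**Figure D1:**
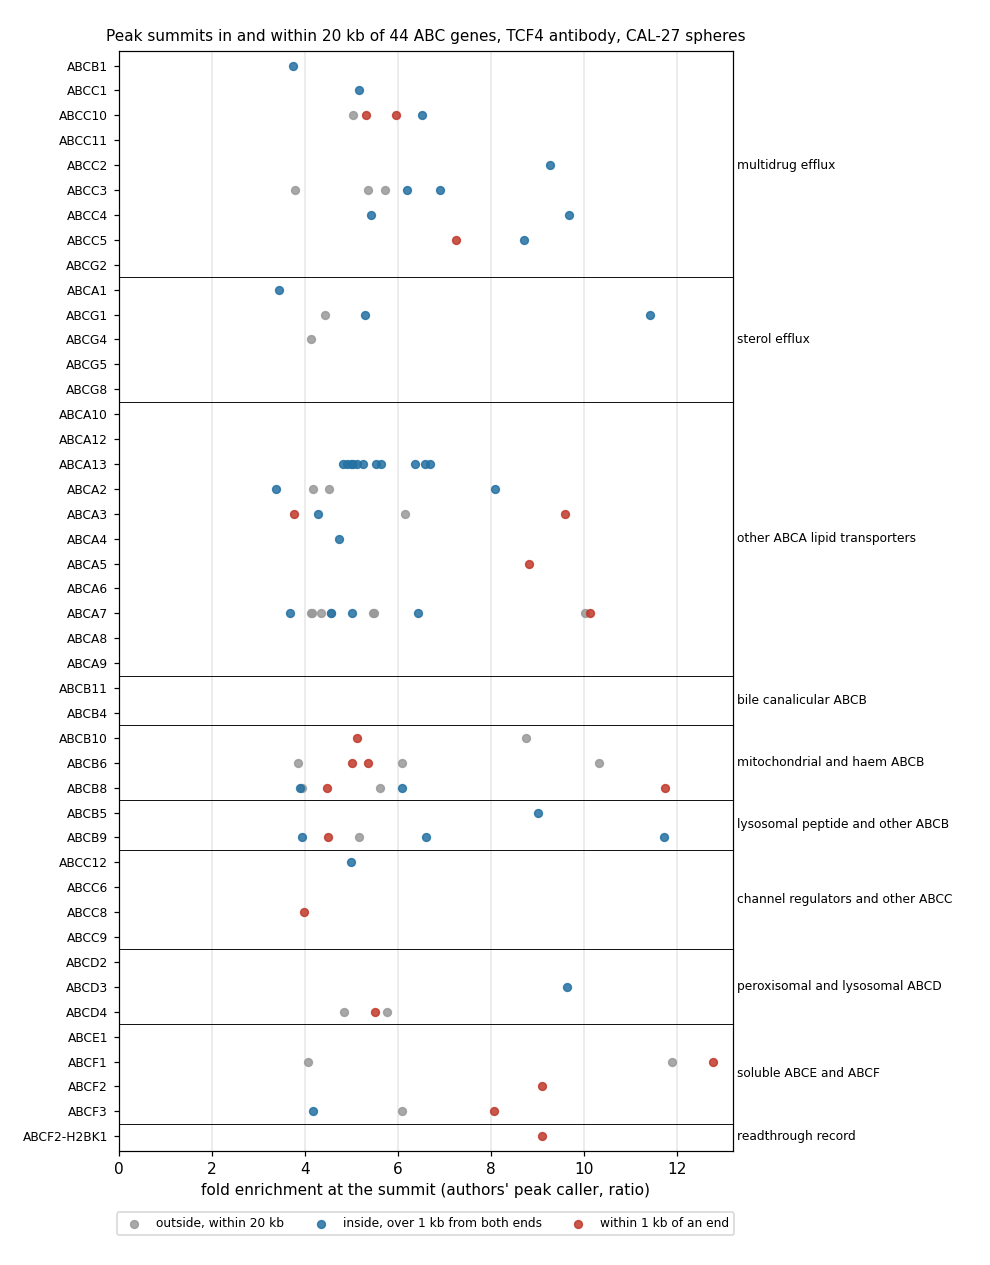
Fold enrichment at every summit inside or within 20 kb of each of 44 ABC genes, grouped by known role; each point is 1 summit, and rows without points had none. Red points (within 1 kb of an end) reach 12.8 at ABCF1; among the 9 multidrug efflux genes ABCC5 and ABCC10 hold red points and 5 others hold blue points inside the gene.

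The soluble ABCF proteins had the strongest end peak of the family. These ATPases bind ribosomes or act in translation and its control. At ABCF1 the peak (chr6:30571227-30571698) had a fold of 12.8 on 37 fragments (exact Poisson interval 26.1 to 51.0, counting error only). The fold is the ratio the authors deposited, summit fragments plus 1 over the peak caller's local background plus 1, and the fragments were solved from it and its p. Of all protein-coding genes with an end peak, 96.2% had a lower strongest fold. ABCF2 had 9.11 on 17 fragments, and ABCF2-H2BK1 shares that peak. ABCF3 had 8.06 on 24 fragments (15.4 to 35.7), with its summit 193 bases before the start. All 3 ABCF loci thus carried a peak just upstream of the start. With 41.2% of all genes holding an end peak, 3 loci are too few to set the group apart. ABCE1, which splits ribosomes after termination and is the remaining soluble member, had no summit within 20 kb. The 300 bases at its start had a CpG ratio of 1.06, equal to that of ABCF3. Their GC was 59.7%, against 68.7%, 65.3% and 68.3% at ABCF1, ABCF2 and ABCF3. They held 0 matches to GGGCGG, against 1, 1 and 3. An ABCC10 start with a GC of 54.3% and 0 matches did have a summit within 1 kb. Whether base composition bears on the lack of a peak at ABCE1 was not tested. Of all protein-coding starts with a CpG ratio of at least 0.6, 57% had a summit within 1 kb.

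Among the mitochondrial and haem-related transporters, 3 of 4 genes had an end peak, a count too small to be told apart from the 41.2% of all genes. ABCB8, a transporter of the inner mitochondrial membrane, had a fold of 11.7 on 38 fragments (26.9 to 52.2) at chr7:151027989-151028470. A second, lower ABCB8 summit with a fold of 4.48 on 14 fragments lay 210 bases after the start. ABCB10, also of the inner membrane and tied to haem synthesis, had only 8 fragments and a fold of 5.13, with its summit 162 bases before the start. ABCB6, a porphyrin transporter, had a pair of summits 452 and 954 bases after its start, with folds of 5.02 and 5.36 on 14 and 15 fragments. The ABCB8 fragments lay above the Poisson intervals of the other members of this group, which overlapped one another.

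ABCB9, a lysosomal peptide transporter, held its strong peak at an inner start. That peak (chr12:122966245-122966730) had a fold of 11.7 on 34 fragments, 44 bases before the start and 8607 bp inside the upper end of the record. At the upper end itself a weaker peak had a fold of 4.51 on 12 fragments, with the summit 11 bp from an end of the neighbour OGFOD2. ABCB5, a member known as a marker of stem-like cells in skin and cornea, had no peak at an end. Its single summit, with a fold of 9.01 on 15 fragments, lay 52813 bp above the low-coordinate end.

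The ABCD transporters bring fatty acyl-CoA into peroxisomes, apart from ABCD4, which acts in the release of cobalamin from lysosomes. ABCD3 counted as inside only by the ends of its record, since the record begins 33090 bp below the summit. Its peak (chr1:94418016-94418545), with a fold of 9.64 on 18 fragments (10.7 to 28.4), lay 168 bases before the start given in the promoter entry. ABCD4 had 5.51 on 9 fragments, 86 bases before its start and 27 bp from an end of VRTN. ABCD2 had no summit within 20 kb of the gene.

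ABCA proteins move lipids, and 3 of the 12 had an end peak, against 41.2% of all genes. These 12 genes are too few to set the group apart. ABCA7, a phospholipid transporter linked to Alzheimer's disease risk, had a fold of 10.1 on 59 fragments (44.9 to 76.1), the deepest end peak of the family, 37 bases before its start. Its local background of 4.92 fragments was high too, against a median of 1.57 over the members' strongest end peaks, and 4 more summits with folds of 3.68 to 6.43 lay inside the gene. ABCA3, which loads surfactant lipids into lamellar bodies, had 9.59 on 27 fragments, 123 bases before its start and 71 bp from an end of the pseudogene ABCA17P. ABCA5, a lysosomal member, had 8.82 on 15 fragments, 53 bases after the start. ABCA2 had no end peak, but an inner one with a fold of 8.08 on 78 fragments over a background of 8.77.

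The ABCA5 peak was the only summit in the run of 5 neighbouring ABCA genes on chromosome 17. ABCA8, ABCA9, ABCA6, ABCA10 and ABCA5 span 459.8 kb there (chr17:68867289-69327133). For scale, protein-coding genes held 1.09 summits per 100 kb inside, and those longer than 300 kb held 0.390. ABCA12, which fills the lipid granules of keratinocytes and is mutated in harlequin ichthyosis, had no summit inside or within 20 kb. ABCA4 of photoreceptors had 1 inner summit with a fold of 4.74 on 7 fragments. ABCA13, the longest member at 476 kb, held 11 inner summits and none at its ends.

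None of the 5 sterol efflux genes had a peak at an end, against 41.2% of all genes, and 5 genes are too few to set the group apart. ABCG1, which loads cholesterol onto high-density lipoprotein, had an inner peak (chr21:42228017-42228322) with a fold of 11.4 on 23 fragments (14.6 to 34.5), 28546 bp above the low-coordinate end. A second inner summit of ABCG1 had 5.29 on 8 fragments. ABCA1, which passes cholesterol to apolipoprotein A-I, had 1 inner summit with a fold of 3.45 on 7 fragments and a −log10 q of 1.48. ABCG5 and ABCG8, a divergent gene pair that forms the intestinal and hepatic sterol pump, had no summit in the 76.8 kb they cover. In the bile group, ABCB4 and ABCB11 had no summit within 20 kb either.

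Of the 9 multidrug efflux genes, 2 had an end peak (against 41.2% of all genes), 5 had a summit inside and none at an end, and 2 had none within 20 kb. ABCC5, an exporter of cyclic nucleotides and nucleotide analogues, had a fold of 7.24 on 13 fragments (6.92 to 22.2), 136 bases before its start. ABCC10, which carries taxanes, had a pair of peaks beside its pair of starts. Their summits lay 13 bases before the first start with a fold of 5.31 on 10 fragments, and 32 bases after the second with 5.96 on 12. These counts overlap widely, so ABCC5 and ABCC10 do not differ beyond counting error.

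The pumps best known for drug resistance had no peak within 1 kb of an end of the gene record. ABCG2 had no summit within 20 kb, although the promoter entries give it 5 starts. ABCB1 had 1 inner summit with a fold of 3.75 on 5 fragments (1.62 to 11.7), 94 bp from an end of RUNDC3B, a gene whose record overlaps ABCB1, and 27420 bp from the nearest ABCB1 start. ABCC1 had 1 inner summit with a fold of 5.16 on 9 fragments, 73133 bp above the low-coordinate end. ABCC2, ABCC3 and ABCC4, pumps of conjugated compounds and cyclic nucleotides, had stronger inner summits, with highest folds of 9.27, 6.91 and 9.68 on 14, 21 and 14 fragments. ABCC11 had none. Since a peak list holds only what passed the caller's threshold, a gene without a peak may still have bound fragments below it.

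Among the remaining ABCC genes, ABCC8, the sulphonylurea receptor of pancreatic beta cells, had the lowest strongest end peak of any member with one, with a fold of 3.99 on 8 fragments, 136 bp beyond its upper end. ABCC9, its counterpart in muscle, and ABCC6, mutated in pseudoxanthoma elasticum, had no summit within 20 kb. ABCC12 had a single inner summit with a fold of 5.004 on 7 fragments. The gene table lists 19 pseudogene records of the family, ABCC6P1 and ABCC6P2 among them. Reads from near-identical copies can be split or dropped in mapping, so values at genes with such copies are uncertain, and how far this touched them was not tested.

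The strength of the members' end peaks overlapped widely with that of all genes. The median of the strongest end fold was 8.44 over the 16 genes (quartiles 5.47 and 9.69), against 6.38 over all 8248 protein-coding genes with an end peak (5.04 and 8.44). Without ABCF2-H2BK1, which repeats the ABCF2 peak, the median was 8.06. Of the 16, 10 reached at least the median of all genes, which 50% of all genes reach by definition. Median fragments were 16 against 13. The count of members with an end peak fell from 16 to 9 at a −log10 q of at least 10, and the difference from the share of all genes turned from -6.38 to 5.47 percentage points.

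For members with a promoter entry, the peaks at ends were peaks at starts. Of 36 members in the promoter table, 15 (41.7%, Wilson interval 27.1 to 57.8%) had a summit within 1 kb of a start, against 44.4% of the 15843 protein-coding genes in it. All 14 of these members that also had an end summit had it at the 5′ end of the record and none only at the 3′ end, which was the case for 4.63% of all such genes. ABCD3 was the fifteenth, through its inner start. ABCF2-H2BK1 repeats the ABCF2 summit in these counts. In 12 of the 15 the strongest summit lay upstream of the nearest start (80%, against 68.7% of all genes), with a median of 123 bases before it. In 14 of the 15 it lay within 250 bases, against 75.1% of all genes, the exception being ABCB6.

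**Figure D2:**
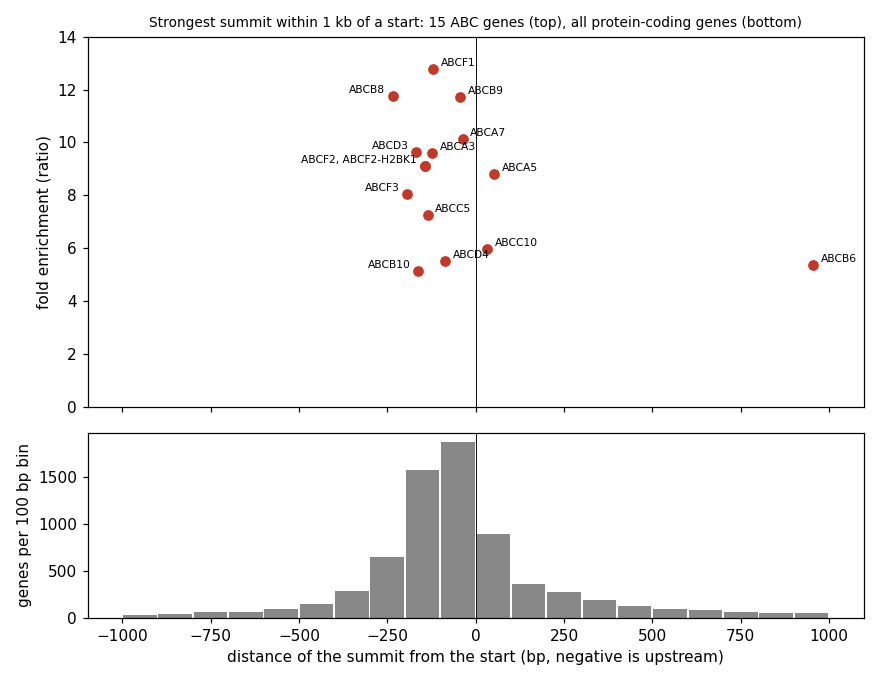
Top: fold enrichment of the strongest summit within 1 kb of a start against its distance from the nearest start in bp, negative upstream, for 15 ABC genes. Bottom: number of all protein-coding genes per 100 bp bin of the same distance; both have most summits just upstream of the start, and ABCB6 at 954 bp is the member farthest away.

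End peaks were also counted by gene length. Of 11 members under 25 kb, ABCF2-H2BK1 among them, 9 had an end peak (81.8%, Wilson interval 52.3 to 94.9%), against 37.8% of all protein-coding genes of that length. Of 20 members from 25 to 100 kb, 7 had one (35%, 18.1 to 56.7%), against 47.3%. None of the 15 members of 100 kb or more had one (interval up to 20.4%), against 39.5% of the 3356 long genes. That count of 0 is for the ends of gene records: ABCD3, one of the 15, had the peak at its inner start described above. The longest member with an end peak was ABCC5, at 97951 bp, just under the upper class limit. The family is long as a whole, with a median of 78916.5 bp against 24115 bp, and members with an end peak were shorter (22267.5 bp) than those without (101023 bp). Over all protein-coding genes the order was the other way, with 28044 bp for genes with an end peak and 21342 bp for those without. These length classes were set after the list of peaks beside the members had been seen, and no test was run on them.

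**Figure D3:**
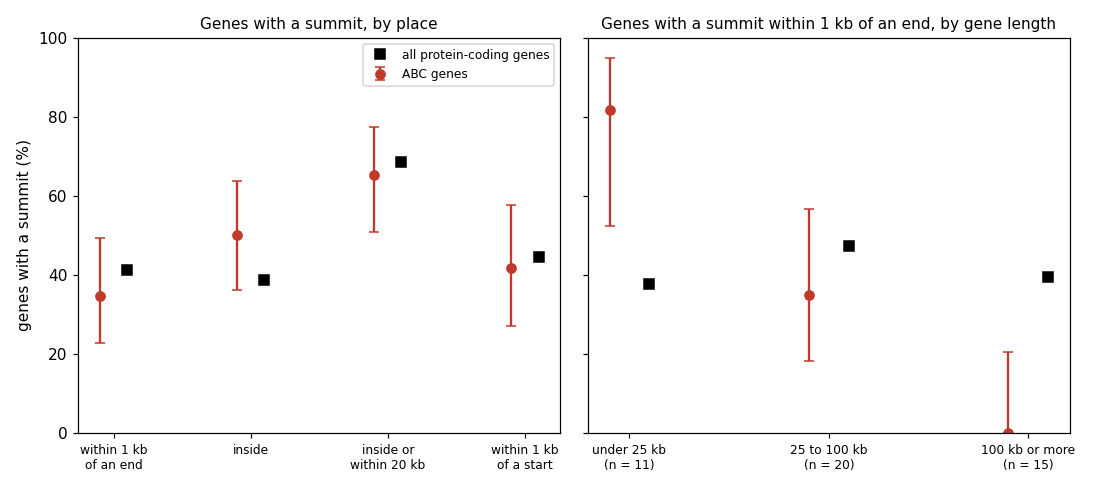
Share of genes with a summit in percent, for the ABC genes (red, with Wilson 95% intervals for counting error) and all protein-coding genes (black), by place of the summit (left) and, for ends, by gene length (right). By place each interval of the ABC genes holds the share of all genes, while for ends it lies above that share under 25 kb and below it at 100 kb or more.

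Base composition at the start moved with these peaks. The CpG ratio is the number of CG pairs in the 300 bases over that expected from their C and G content. At 18 starts of 15 members with a summit within 1 kb its median was 0.885, and the lowest was 0.538. At the 36 starts without one the median was 0.459, from 0 to 1.20. None of 17 member starts with a ratio under 0.4 had a summit, against 8.02% of such starts of all genes. From 0.6 up, 16 of 32 did (50%, against 57.0%). Every start in the table of ABCA6, ABCA9, ABCA12, ABCA13, ABCB11, ABCC2, ABCG5 and ABCG8 had a ratio under 0.4, and an ABCD2 start held no CG pair. Starts were counted singly. ABCF2 and ABCF2-H2BK1 share the same start, and some starts of ABCB9, ABCC6, ABCC10 and ABCG2 lie close together, so starts are not independent.

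Among members of 100 kb or more with a promoter entry, 6 had a start with a ratio of at least 0.6. Of these 6, 1 had a summit there, ABCD3 (16.7%, against 53.5% of all such long genes). The starts of ABCA1 (0.782), ABCB1 (0.698 at the inner start), ABCC4 (0.992), ABCC9 (0.976) and ABCG2 (0.902 at the highest of 5) were CpG-rich and had none. Long members without a promoter entry, ABCA4, ABCB4, ABCB5 and ABCC1 among them, could not be counted, and 6 genes are too few to set the group apart. Among shorter members the count was 13 of 19 (68.4%, against 59.8%). Whether these genes are active in CAL-27 spheres was not measured here, and its part in these counts was not tested.

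**Figure D4:**
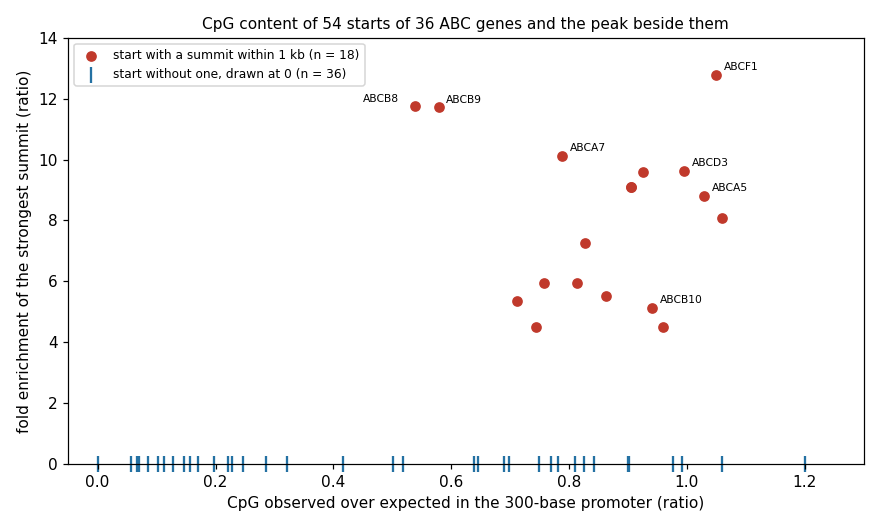
CpG ratio of the 300-base promoter against the fold enrichment of the strongest summit within 1 kb, for 54 starts of 36 ABC genes; blue ticks at 0 are starts without a summit. No start under 0.538 has a summit, while the ticks reach 1.20.

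Short motifs at the starts differed in how they went with peaks. As for the CpG ratio, starts that are shared or lie close together are counted singly and are not independent. The GC box, GGGCGG on either strand, was in 17 of 18 member starts with a summit and in 9 of 36 without. For all protein-coding starts the shares were 76.3% and 42.8%, and 56.3% over all of them. E-boxes (CANNTG, which reads the same way on both strands and includes CAGGTG and CAGCTG) were in 14 of 18 (77.8%) and 24 of 36 (66.7%), against 58.7% and 69.4%, with 65.1% of all promoters of this length holding one. CAGGTG, searched on both strands, was in 5 of 18 and 7 of 36, and CAGCTG in 4 of 18 and 9 of 36. They are in 19.9% and 18% of all promoters. The TCF/LEF core CTTTGA was in 1 of 18, at an ABCB9 start, and in 5 of 36 (13.9%), at ABCA1, ABCB1, ABCC9, ABCC12 and ABCD2. Its share was 7.15% and 13.5% in all genes and 10.9% overall. The AP-1 site TGANTCA was in 1 of 18 and 5 of 36, against 6.15% of all promoters, and CCAAT in 6 of 18 and 7 of 36, against 34.7%. The ABCB1 match to CTTTGA lies after the stretch printed above, within the 50 bases that follow the inner start.

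Inside the gene, 23 of the 46 members held a summit (50%, Wilson interval 36.1 to 63.9%), against 38.8% of all protein-coding genes. Since long genes have more room, density is the closer comparison. The members held 47 summits in 4185.2 kb, 1.12 per 100 kb, against 1.09 per 100 kb over all protein-coding genes. Without ABCA13 it was 36 summits and 0.971 per 100 kb. With 20 kb added on either side, 30 members had a summit (65.2%, 50.8 to 77.3%), against 68.5% of all genes. Of the 46, 15 had none within 50 kb (32.6%, against 22.6%).

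ABCA13 held 11 of the 47 inner summits. They lay 25.3 to 366.3 kb from its start, with folds of 4.83 to 6.70. Their median fold of 5.25 was near the 5.13 of all peaks. They held 7 to 12 fragments, against a median of 10 over all peaks. Its 2.31 summits per 100 kb compare with 0.390 over the 773 protein-coding genes longer than 300 kb, of which 20 (2.59%) held at least 11. Outside the gene, the 1 Mb below it held 2.8 summits per 100 kb and the 1 Mb above it 1.3. The 1.09 inside all protein-coding genes is not a like measure for such stretches, and no other 1 Mb stretches were counted. The local background at the ABCA13 summits, with a median of 0.834 fragments, was below the 0.962 of all peaks. Copy number in CAL-27 was not measured here, and its part in this density was not tested.

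**Figure D5:**
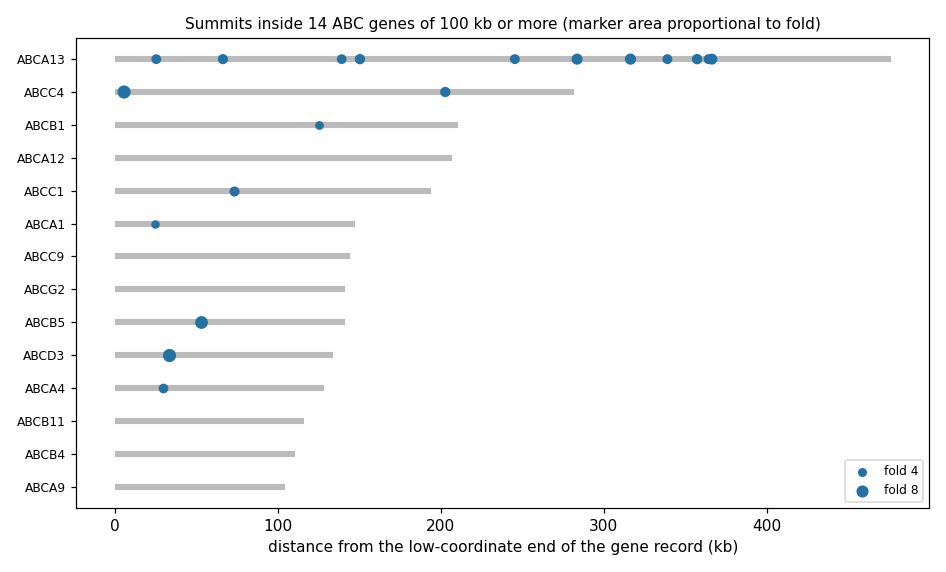
Summits inside 14 ABC genes of 100 kb or more, by distance from the low-coordinate end in kb; grey bars are gene records and marker area is proportional to fold. ABCA13 holds 11 summits, ABCC4 holds 2, and 6 of the genes hold none.

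Some strong peaks within 20 kb of members lay outside the ABC gene. ABCA7 had 12 summits inside or within 20 kb, the most of any member. The deepest of them, with a fold of 10.025 on 81 fragments, lay 16660 bp above the gene. The nearest end of another coding gene, that of POLR2E, was 4342 bp away. Distances to neighbours are to gene ends, so a summit may also lie inside a gene whose ends are farther off. Below ABCF1 a fold of 11.9 on 52 fragments lay 101 bp from an end of PRR3. Above ABCB6 a fold of 10.3 on 24 fragments lay 21 bp from an end of ANKZF1. Such summits count for the 20 kb window of the ABC gene and equally for that of the neighbour.

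Genes that work with ABC proteins were read the same way, from lists set from background knowledge. The lists were chosen with earlier results of these data known, so their counts may not be independent of the peaks. Of nuclear receptors and stress factors known to control ABC genes, 11 of 14 had an end peak (78.6%, against the 41.2% of all genes). The sterol regulator SREBF2 had a fold of 13.05 on 36 fragments and the xenobiotic receptor AHR 11.6 on 23. The oxysterol receptors NR1H2 and NR1H3, which switch on ABCA1 and ABCG1, had folds of 8.36 and 6.91, with their partners RXRA and RXRB at 3.88 and 5.36. YBX1, ARNT, HIF1A, NFE2L2 and KEAP1 had folds of 10.1, 8.97, 8.34, 6.55 and 6.34. The bile acid receptor NR1H4 and the xenobiotic receptor NR1I2 had none at an end.

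Partners of the single branches are given as counts of small lists, to be read against the 41.2% of all genes. Ribosome rescue and recycling partners, a broad list, had an end peak in 5 of 6. Folds were 13.99 at the release factor gene ETF1, 11.9 at EIF3J, 9.89 at EIF2S1, 8.57 at HBS1L and 7.32 at GSPT1. PELO had an inner summit only. Peroxisome and cobalamin partners had one in 6 of 7, with folds of 8.79 at LMBRD1, 7.28 at MMACHC, 7.07 at ACAA1, 4.74 at PEX3 and 4.38 at HSD17B4 among them, and none at PEX19. Cholesterol and lipoprotein partners had 4 of 9, close to the share of all genes. NPC2, which takes cholesterol out of lysosomes with NPC1, had a fold of 20.3 on 56 fragments, above every end peak of an ABC gene. NPC1 and PLTP had 8.41 and 4.09, and APOA1 and APOE had none.

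Haem and iron-sulphur partners had an end peak in 3 of 8 (37.5%, against 41.2% of all genes), PPOX (9.87), CPOX (7.22) and UROD (5.096), with none at ALAS1 and FECH. Other drug handling genes had 3 of 7 (42.9%), near the same share, GCLM (6.35) and GSTP1 (6.12) among them, and none at GCLC and MVP. KCNJ8 and KCNJ11, the channel pores that pair with ABCC8 and ABCC9, had no summit at an end or inside. Of the 3 ABC proteins with other symbols, the peptide pumps TAP1 and TAP2 had folds of 11.4 and 8.79, and CFTR had 2 inner summits only.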

How the data were processed

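Members were compared with all protein-coding genes of the same TCF4 library; IgG data were not used here. The submitters' processing notes name hg38, Bowtie2 2.3.5.1, SAMtools and MACS2 2.2.7.1, without settings. Whether IgG was the caller's control is not stated there. The deposited peak list, called on 1 library, gives the authors' fold ratio, −log10 p-value, −log10 q-value and a score (10 times the −log10 q, decimals dropped). The deposited coordinates are hg38. Fragments and local background were solved from fold = (fragments + 1) / (background + 1) and a Poisson tail. All peaks were solved within 0.0001. The fragment number came back for 500 of 500 peaks simulated with the same forms, which checks the solver and not the forms. Total depth is unknown. Genes and promoters came from RefSeq tables (GRCh38.p14). Named were the members, and of partner lists the genes with an end peak and the first 2 without, by alphabet (CFTR with the other-symbol list). Some genes of the family and of these lists enter the counts but are not reported here by name. Members and lists were chosen with earlier results of these data known. Alternatives were stricter thresholds, other windows, peak overlap, nearest ends and starts. Intervals cover counting error only. Scripts ran under Python 3.11.15 with pandas 2.3.3, SciPy 1.17.1, Matplotlib 3.10.9 and NumPy 2.4.6.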

Additional observations from a re-analysis of the deposited data

How the results depend on the processing

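Of 43 recomputed values, 37 stayed within set limits. Counts had to stay within 1.5 times the reported one, and the median end fold within the SD over members (2.65). The difference between the family and all genes had to stay within its counting interval, from -18.5 to 8.07 percentage points. That interval covers both signs, so the 10 values of the difference that stayed within it do not show a stable direction. The 6 that moved came from stricter thresholds. At a −log10 q of at least 10, 9 members had a summit at an end and 12 inside. With at least 5, the inside count was 15. With at least 20 fragments the counts were 6 at an end, 6 inside and 11 inside or within 20 kb. The difference between the family and all genes in end peaks ran from -10.6 percentage points (window of 2000 bp) to 5.47 (−log10 q of at least 10), and was 2.07 with at least 20 fragments, so its direction is not settled. The median end fold ran from 8.06 to 10.1. Without ABCF2-H2BK1, chosen after seeing the data, 15 of 45 genes had an end peak. Counting each summit for the nearest end alone left 14, since the summits at ABCB9 and ABCD4 lay nearer to OGFOD2 and VRTN. No paired analysis was possible because each antibody has 1 library.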

Other observations

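Of the family's 19 pseudogene records, 3 had a summit inside or within 1 kb, ABCA15P and ABCA17P among them. The strongest ABCA3 end summit lay 71 bp from an end of ABCA17P. None of the 3 long non-coding records named after ABC genes had a summit inside or within 1 kb. The shares over all pseudogene and long non-coding records were not counted, so these counts cannot be called high or low. Among neighbouring pairs, the spans of ABCB1 with ABCB4, ABCC11 with ABCC12 and ABCC1 with ABCC6 each held a single summit, in 347.4, 166.7 and 274.4 kb. For scale, all protein-coding genes held 1.09 summits per 100 kb inside, and those longer than 300 kb held 0.390. Single summits are too few to call these spans unusually empty.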
